A study of Mus musculus with 12 samples.

Results

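The regions described here are the 247 places in the mouse genome where a USF2 peak was called in every one of 4 separate peak lists, out of 3804 places called in at least 1 list. They were found by merging peaks of the 4 lists that overlapped by at least 1 bp on chromosomes 1 to 19, X and Y and keeping each merged region that held a peak of all 4. They make up 6.49% of all merged regions. The regions were thus selected on the peak calls themselves, so their presence in every list, and the peak heights behind it, are given as a description with no test. Position relative to genes, neighbouring genes and DNA sequence were not used in the choice.

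The assay was ChIP-seq: chromatin is cut up, the DNA held by a protein is recovered with an antibody against that protein, and the DNA is sequenced. The cells were mouse embryonic fibroblasts (MEFs) of wild-type genotype, kept in normal culture or deprived of glucose, with 2 libraries of each condition. The labels give neither the length of the starvation nor whether separate cultures were used for the libraries of a condition, so differences between these may be technical. Of the 12 samples of the series, the other 8 (inputs and libraries for H3K27ac, a mark of active chromatin) were not analysed here.

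USF2 belongs to the basic helix-loop-helix leucine zipper family of transcription factors. It binds DNA as a dimer with itself or with its relative USF1, and its preferred sequence is the E-box CACGTG, a palindrome that reads the same on both strands. The same core is recognised by other factors of this class, among them MYC with MAX and the lysosomal regulators TFEB, TFE3 and MITF.

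The sequences at the summits show what most of the regions at gene starts had in common. Of the 247 regions, 154 had their summit, taken as the median of the 4 lists' summits, inside a RefSeq promoter window of the build GRCm38.p6, which runs from 250 bases before to 50 bases after a listed start. The first stretches below are those of the first 6 regions that held the E-box, in an order set by peak rank within the lists. Each is written 5′ to 3′ on the strand of the gene named, with every E-box in capitals.
Lamp1, chr8:13159092-13159159, plus strand: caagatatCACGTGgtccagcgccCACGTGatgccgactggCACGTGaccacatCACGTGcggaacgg
Fam118b, chr9:35267776-35267835, minus strand: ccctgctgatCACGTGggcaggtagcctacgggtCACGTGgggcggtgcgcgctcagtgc
Atp6v0b, chr4:117887315-117887374, minus strand: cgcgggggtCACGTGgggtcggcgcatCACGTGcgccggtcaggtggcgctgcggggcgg
Nagpa, chr16:5203983-5204042, minus strand: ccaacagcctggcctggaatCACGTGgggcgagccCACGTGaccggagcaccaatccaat
Washc2, chr6:116208001-116208060, plus strand: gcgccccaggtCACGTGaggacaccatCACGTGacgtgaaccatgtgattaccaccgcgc
Orai2, chr5:136170708-136170767, minus strand: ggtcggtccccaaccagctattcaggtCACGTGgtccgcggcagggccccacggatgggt

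In these 6 regions the middle of the nearest E-box lay 7.5, 5.5, 10.5, 6.5, 7.5 and 11.5 bp from the summit, in the order printed. The Lamp1 window held 4 E-boxes and the windows of the other genes held 2 each, the second Orai2 copy lying outside the stretch shown. The windows with 4 or 5 copies are shown next to let the spacing be read, the remaining ones being those of Mfsd1, a lysosomal transporter, Cdk4, a cell cycle kinase, and Zmym6, a zinc finger protein.
Mfsd1, chr3:67582674-67582763, plus strand: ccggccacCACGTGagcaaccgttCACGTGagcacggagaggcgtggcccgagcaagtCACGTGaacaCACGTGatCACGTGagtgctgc
Cdk4, chr10:127063355-127063537, plus strand: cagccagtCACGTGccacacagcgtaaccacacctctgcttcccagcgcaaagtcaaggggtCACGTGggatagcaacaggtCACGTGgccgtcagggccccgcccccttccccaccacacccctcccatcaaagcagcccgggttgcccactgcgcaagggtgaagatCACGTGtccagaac
Zmym6, chr4:127077275-127077408, plus strand: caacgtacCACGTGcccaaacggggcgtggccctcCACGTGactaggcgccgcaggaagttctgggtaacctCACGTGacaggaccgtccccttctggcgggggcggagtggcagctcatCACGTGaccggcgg

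A pair of promoters shared by genes on opposite strands is shown because the E-box nearest the summit lay near a start there, 68.5 bp before that of Atg3 and 17.5 bp after that of Hnrnph2. Atg3 encodes the enzyme that attaches lipid to autophagy proteins of the Atg8 family, and its neighbour Slc35a5 a nucleotide sugar transporter of the Golgi. Gla encodes the lysosomal enzyme alpha-galactosidase A, and its neighbour Hnrnph2 an RNA-binding protein. These were chosen after their values were seen.
Atg3, chr16:45158731-45158790, plus strand: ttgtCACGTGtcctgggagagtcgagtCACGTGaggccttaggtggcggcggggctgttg
Hnrnph2, chrX:134601149-134601208, plus strand: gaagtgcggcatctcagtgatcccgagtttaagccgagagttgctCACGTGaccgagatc

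The first 2 regions whose window held no E-box are shown around their summit for contrast. They lay at Acsf3, a mitochondrial enzyme of fatty acid metabolism, in the window of the neighbouring gene Gm39271, and at the overlapping starts of Zdhhc6 and Vti1a, a protein of vesicle fusion, with the summit inside Vti1a.
Gm39271 near Acsf3, chr8:122775424-122775483, minus strand: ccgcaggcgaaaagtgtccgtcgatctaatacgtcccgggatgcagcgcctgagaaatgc
Vti1a, chr19:55316027-55316086, plus strand: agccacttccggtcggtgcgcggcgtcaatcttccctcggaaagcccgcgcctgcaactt

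The lists held 1645 and 2124 peaks for the normal libraries and 825 and 1178 for the starved libraries. The regions called in all 4 took 15.0%, 11.6%, 29.9% and 21.0% of these peaks, in that order, and each list had exactly 1 peak in each region. Peak width also differed, with a minimum of 152 bp in the normal lists and 306 bp in the starved lists. Fold enrichment, the authors' own value, is the ratio of reads piled up at a summit to the local background. Since depth and caller settings enter into it, it serves here to rank peaks of 1 list, and conditions were not compared by it. The lists hold no expression values, so the fibroblast identity of the cells could not be checked. None of 12 fibroblast marker genes and none of 13 marker genes of other cell types had one of the regions, and at a share of 1.14% over all protein-coding genes these zeros say nothing of the cell type.

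The regions were among the strongest of every list. Their median fold enrichment was 9.46 in both normal lists, against medians of 5.31 and 5.46 for the other peaks there. In the starved lists it was 8.05 and 7.94, against 5.21 and 5.28. In the order of lists above, 84.2%, 81.0%, 61.9% and 70.0% of the regions were in the top 25% of their list by fold enrichment. The median number of reads at the summit, recovered from the deposited values, was 17 in both normal lists and 18 in both starved lists, against 5 at the other peaks of each list. It was at least 10 reads in all 4 lists at 203 of the 247 regions.

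At the head of the order stood Lamp1, a main protein of the lysosomal membrane, with 80, 75, 56 and 60 reads at its summits in the first and second normal and the first and second starved list. This order of lists is kept below. Lamp1 ranked first by fold enrichment in each list. Next came Fam118b with Rpusd4, a mitochondrial RNA pseudouridine synthase, at 26.2, 30.8, 16.7 and 20.6, and Atp6v0b, which encodes a part of the lysosomal proton pump. Stmn1, a protein that destabilises microtubules (chr4:134468078-134468661), had fold enrichments of 17.6, 20.1, 18.2 and 20.1. Values of different lists are not on one scale, so those of normal and starved lists were not compared.

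Genes of endosomes and of lysosomal enzyme sorting followed. Washc5, a subunit of the WASH complex that builds actin on endosomes, shared its region with Nsmce2, a SUMO ligase of the SMC5/6 complex, at 20.7, 18.6, 15.6 and 17.5. Nagpa, which uncovers the mannose 6-phosphate tag of lysosomal enzymes, and Washc2, a further WASH subunit, came after it. Orai2, a calcium channel of the plasma membrane (chr5:136170445-136171053), had 16.9, 13.8, 17.2 and 15.9. Rad9a, of the DNA damage checkpoint clamp (chr19:4201448-4202189), had 12.7, 15.9, 24.7 and 15.8. After these came Wwp2, a ubiquitin ligase (chr8:107436008-107436509), at 18.8, 16.3, 14.1 and 14.9, and Hps1, a gene of lysosome-related organelles (chr19:42779732-42780240), at 17.0, 16.4, 11.4 and 14.8.

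**Figure D1:**
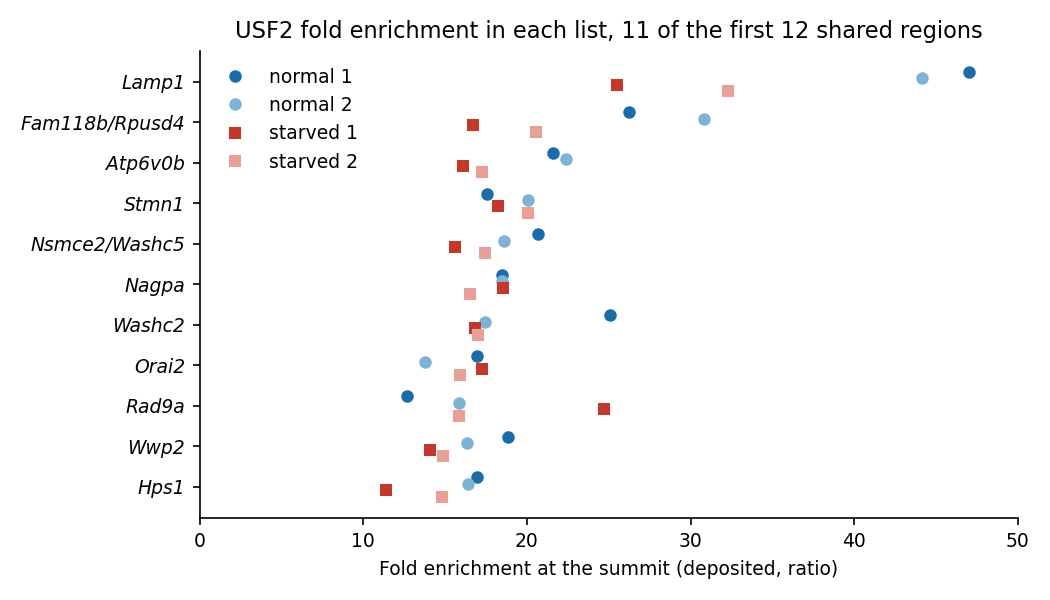
Fold enrichment at the summit (deposited ratio, linear axis) of 11 of the first 12 regions in each list, with circles for normal and squares for starved libraries and 1 point per library. Lamp1 stands apart at 25.5 to 47.0, and the other 10 lie between 11.4 and 30.8.

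At the weak edge of the choice, the 4 regions with the lowest −log10 q in any list were those at Plcg2, in Fbxo7, at Mapk12 and at Tyw5 with Maip1. Their lowest −log10 q values were 1.35, 1.71, 1.81 and 2.06, and the Plcg2 summit rested on 4, 4, 3 and 3 reads. Just outside, 66 regions were called in 3 lists, of which 33 lacked the first starved list. The 4 with the highest smallest −log10 q lay at Bloc1s1, in Zcchc2, at Rgl1 with Arpc5 and at Dlg1, with smallest values of 7.19, 7.15, 6.97 and 6.91. Those 4 were thus called with lower q-values in their 3 lists than the weakest regions inside had in their weakest list.

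Most of the regions lay at an end of a protein-coding gene. Of the 247, 205 had a summit within 1000 bp of the annotated start or far end of such a gene, here called gene-end regions (83.0%, 95% exact interval 77.7 to 87.5, counting error only). The median distance from summit to gene end over all 247 was 65 bp. The share was 77.3% (65.3 to 86.7) among regions of 3 lists, 20.4% among the 760 called in both normal lists only, 38.9% among the 275 called in both starved lists only, and 8.80% among the 2397 called in 1 list. The 205 regions touched 250 genes, which is 1.14% of the 21887 protein-coding genes in the table.

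Within each list the peaks inside the 247 regions were compared with the list's other peaks. The gene-end share inside was 82.6% to 83.0%, and outside it was 18.2%, 15.1%, 28.0% and 22.8%. The difference was 61.8 ± 5.74 percentage points (SD, n = 4 lists), higher inside in 4 of 4 lists, with an exact two-sided sign-flip permutation p of 0.12 (2 of 16 sign patterns), the smallest that 4 lists allow. The lists share the regions, so they are not independent. Among peaks in the top tertile of fold enrichment of their list the difference was smaller, 31.8 points on average and 9.09 to 50.7 by list, again positive in 4 of 4 (exact p = 0.12).

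**Figure D2:**
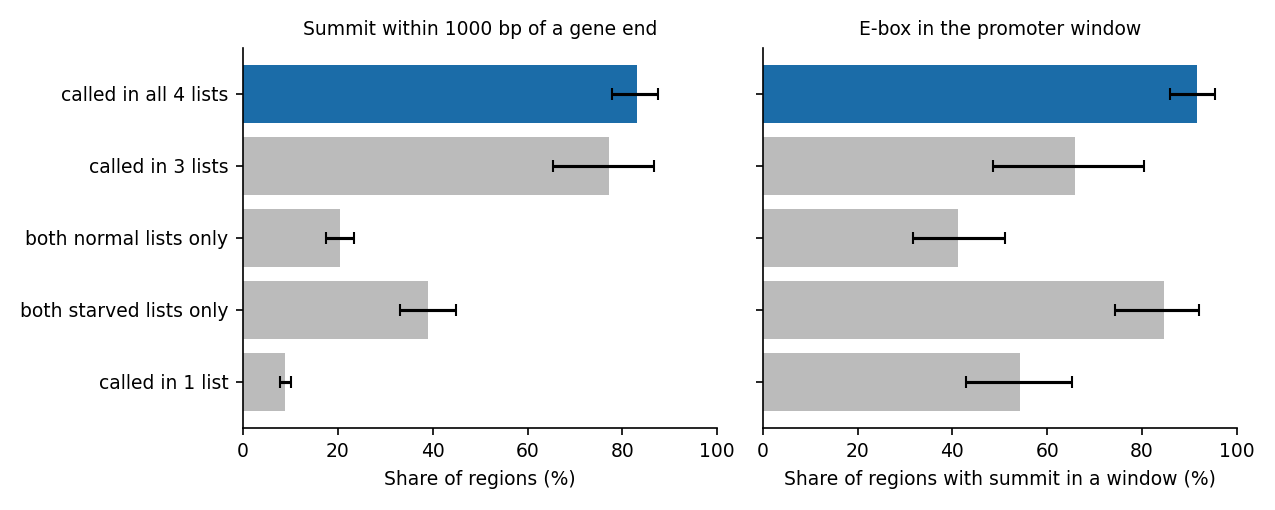
Share of merged regions with a summit within 1000 bp of a protein-coding gene end (left, %) and, among regions with a summit in a promoter window, share whose window held the E-box (right, %), by the lists that called them, with 95% exact intervals; the 59 regions of 1 list of each condition are not drawn. Regions of all 4 lists reach 83.0% and 91.6%, and those of both normal lists only 20.4% and 41.1%.

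At regions of 1 gene whose strand was known, the gene end was a start. RefSeq promoter entries gave starts and strand for 17492 of the 21887 genes (79.9%), and none on chromosome 18, where 8 of the regions lay. Of 159 regions with 1 gene, 122 lay at a start, none at a far end, and 37 belonged to genes with no strand given. At 165 regions at least 1 of the genes had a listed start, taken at whatever distance from the summit. The median summit lay at -29 bp from the nearest such start (quartiles -74 to 12, negative meaning before it). Of the 165 summits, 120 (72.7%) were within 100 bp and 113 (68.5%) were upstream.

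Another 46 of the 205 gene-end regions (22.4%, 16.9 to 28.8) were shared by 2 protein-coding genes. In 23 of them the starts of both genes faced away from each other or overlapped on opposite strands, in 10 the start of one gene met the far end of the other, in 1 (Znrf1 with Ldhd) both were far ends, and in 12 strand was not given. The share was 31.4% at regions of 3 lists, 20.6% at those of both normal lists only and 17.8% at those of both starved lists only. As background, 2417 of 17492 listed starts, 1 per gene (13.8%), had an end of another protein-coding gene within 1000 bp. That share is per gene and measured from the start, and those of the regions are per region and measured from the summit. They are thus not like for like. The distance between the annotated starts of the 23 opposite-strand pairs had a median of -6 bp, from -1095 (overlapping) to 285, and 11 pairs did not overlap.

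The first 10 shared regions show most of these layouts, though none with the far ends of both genes. At Fam118b and Rpusd4 the starts lay 6 bp apart, and at Dolk, an enzyme that makes dolichol phosphate for glycosylation, and Nup188, a nuclear pore subunit, they lay 53 bp apart with the summit between them (fold enrichments 15.7, 14.4, 8.86 and 9.80). Fen1, a flap nuclease of DNA replication, overlapped Tmem258, a subunit of the oligosaccharyltransferase, and the summit lay 48 bp before a listed Fen1 start. The region of Neurl2 and Ctsa, the lysosomal protective protein cathepsin A (chr2:164833441-164834040), lay 896 bp from the end of the Ctsa span. Its summit was nevertheless 5 bp from a further listed Ctsa start, and 172 bp from that of Neurl2.

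Start-to-far-end layouts were those of Dvl2 with Phf23, Amdhd2 with Atp6v0c, Khk with Emilin1 and Supt16 with Chd8. The summit lay 70 bp before the start of Dvl2, a Wnt signalling protein, and 511 bp from the far end of Phf23. In the region assigned to Atp6v0c, the pore subunit of the proton pump (chr17:24163511-24163980), the summit was 6 bp from the start of Amdhd2, an N-acetylglucosamine metabolic enzyme, and 126 bp from the far end of Atp6v0c, whose nearest listed start was 5070 bp away. At Khk, which encodes fructokinase, the summit lay 86 bp before a listed start. Supt16, a histone chaperone subunit, had the summit 205 bp before its start and Chd8, a chromatin remodeller, had its far end 707 bp away. For the remaining pairs, Nsmce2 with Washc5 and Mtdh with Gm41291, strand was not given.

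The other 42 regions lay away from protein-coding gene ends, 32 inside a gene and 10 between genes. Many of these were still at a listed start. In 13 the summit was within 100 bp of a further start of a protein-coding gene, and in 26 it was within 1000 bp of a start of a gene of any type. The summit of 18 fell in a promoter window, and all 18 windows held the E-box. Examples from the first 8 in the order follow. The region in Intu, a ciliary planar polarity gene, had its summit 3 bp after an internal start. The region in Arsa, the lysosomal arylsulfatase A gene, lay 106 bp before the long noncoding RNA C230037L18Rik. Those in Mien1, C87436, Sgo1, which protects cohesin at centromeres, and Rab3il1, an exchange factor for Rab GTPases, lay 27, 14, 53 and 31 bp before listed starts of these genes. The strongest of all, at chr12:110591226-110592187, lay 8692 bp from Ppp2r5c, a phosphatase regulatory subunit, and 393 bp from the noncoding RNA B930059L03Rik, with fold enrichments of 16.3, 19.5, 13.1 and 15.3.

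Some regions neighboured each other. There were 13 pairs of adjacent regions with summits within 50000 bp. The closest pair, 1482 bp apart, lay inside Cpt1a, the enzyme that admits fatty acids to mitochondria, at chr19:3323740-3324250 and chr19:3325123-3325745. Apex1 with Osgep and Pip4p1, a lysosomal lipid phosphatase, were 6127 bp apart. Hoxa4, Hoxa7 and Hoxa9, neighbouring homeobox genes, held 3 regions within the cluster on chromosome 6. Per 1000 protein-coding genes, chromosome 10 held 23.0 of the regions (23 in number), chromosome 19 held 21.3 (15) and chromosome 8 held 20.1 (21). Chromosome 15 held 19.3 (15), chromosome 17 held 17.0 (18), chromosome 18 held 15.7 (8) and chromosome 11 held 15.5 (25). At the low end, chromosome 1 held 4.98 (6), chromosome 7 held 4.43 (9), X held 3.11 (3) and Y none.

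The summits of the 4 lists lay near one another, in part through the choice itself. Peaks had to overlap to share a region, so their widths limited how far apart summits could lie. The median widths of these peaks were 222, 219, 437 and 446 bp in the order of lists. The range of the summits in a region had a median of 60 bp (quartiles 39.5 to 92.5). It was at most 50 bp in 94 regions (38.1%) and at most 100 bp in 198 (80.2%), and exceeded 200 bp in 9. The median distance was 13 bp between the normal lists, 26 bp between the starved lists and 33 to 35 bp across conditions. The peak widths differ between conditions, and their part in the larger distance across conditions was not tested. In 79 regions 2 peaks of a condition had an identical start or end position.

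At the closest extreme, the 4 summits fell within 3 bp at Ppp2r5c itself, at Kat6a, a histone acetyltransferase, and at Trrap, the scaffold of acetyltransferase complexes. At the far extreme were Klc4 with Mrpl2 and Ubap2, each at 303 bp, and Prmt3, an arginine methyltransferase that acts on a ribosomal protein, at 475 bp. The Prmt3 summits formed a normal pair 3 bp apart and a starved pair 21 bp apart. At Klc4 with Mrpl2 the second starved summit was the distant one, and at Ubap2 it was the first starved summit that lay farthest out.

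The E-box was present at nearly all regions that could be read. Among the 154 regions with a summit in a promoter window, 141 windows held CACGTG (91.6%, 86.0 to 95.4), against 7.15% of all 32851 windows of 300 bp and 7.84% of protein-coding windows. The member windows were rich in G and C, with a median of 63.0% against 52.7% of all windows. In protein-coding windows between the members' quartiles of GC content, 10.4% held the E-box. Of the windows with a summit, 65.8% held it at regions of 3 lists, 41.1% at those of both normal lists only, 84.7% at those of both starved lists only and 54.2% at those of 1 list. The exact intervals were 74.3 to 92.1 for the starved-only regions, 48.6 to 80.4 for the regions of 3 lists and 31.7 to 51.0 for the normal-only regions. They hold counting error only, regions are not replicates of a condition, and the classes were not tested against each other. Over the 189 regions of all 4 lists with a listed start within 1000 bp, whether or not the summit fell in its window, 82.0% of the windows held the E-box.

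Set against the other peaks of the same list, peaks inside the 247 regions held the E-box in 91.0%, 91.0%, 93.0% and 91.9% of windows, and the others in 49.4%, 44.1%, 79.2% and 76.9%. The difference was 29.3 ± 17.4 points (SD, n = 4 lists), higher inside in 4 of 4 lists (exact two-sided sign-flip permutation p = 0.12, the smallest possible). As for the gene-end share, the lists share the regions, so they are not independent. The difference was larger in both normal lists than in both starved lists, since the other peaks of the starved lists held the motif more often. In the middle tertile of fold enrichment the second starved list turned the other way, at -3.17 points, leaving 3 of 4 lists higher (exact p = 0.25).

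The summit sat on or beside the motif. Its median distance to the middle of the nearest E-box was 11.5 bp (quartiles 5.5 to 21.5). In 112 of 141 windows (79.4%) it was within 25 bp, and in 12 it lay on the motif. Summits of single lists were less close, with medians of 13.5 bp in both normal lists and 21.5 and 27.5 bp in the starved lists. The longest distances were those at Ubap2 (212.5 bp) and Hps5 (208.5 bp), a gene of lysosome-related organelles. The place of the E-box relative to the gene start was also read. Its median position was -39.5 bp from the start (quartiles -68.5 to -5.5), and 95 of 141 (67.4%) lay in the 100 bp before it, against 46.5% of the E-boxes in protein-coding windows. Counting the whole window, which has 250 bases before the start and 50 after it, 78.7% lay before the start, against 85.8%. The region figures take only the E-box nearest the summit, in the window of the start nearest the summit. The background takes every E-box of every protein-coding window with no summit to choose by, so these shares are not like for like.

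**Figure D3:**
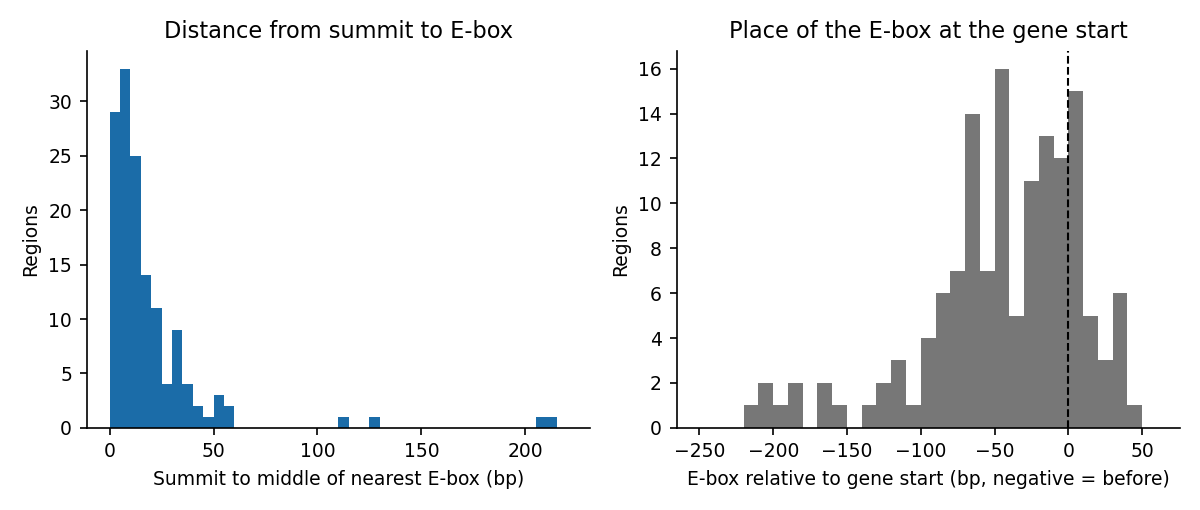
Number of regions by the distance from the median summit to the middle of the nearest E-box in 5 bp bins (left) and by the position of that E-box relative to the gene start in 10 bp bins, negative meaning before it (right), over 141 regions. Distances gather under 25 bp, with a median of 11.5 bp, and positions gather before the start, with a median of -39.5 bp.

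Many windows held more than 1 copy. At least 2 E-boxes were found in 57 of the 154 windows (37.0%), against 0.748% of protein-coding windows, with 2 copies in 48, 3 in 5, 4 in 3 and 5 in Mfsd1. The smallest spacing within a window had a median of 33 bp from start to start (quartiles 20 to 50), with 26 windows at 30 bp or less. These windows included 24 of the 38 in the first 50 regions. By groups of 50 along the order, 38 of 38, 27 of 30, 26 of 29, 29 of 31 and, in the last 47 regions, 21 of 26 windows held the E-box, so all windows without it stood below the first 50.

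The bases beside the motif also differed from the background. Reading the E-box nearest the summit of each window on both strands, the 2 bases before it were GT in 46.8% of 282 flanks. The background was 20.3% of 3696 flanks, taken from every E-box in protein-coding windows, so these shares are not like for like. A single T directly before the E-box was found in 67.4% against 35.7%. GT stood before the motif on at least 1 strand in 111 of the 141 and on both strands in 21. Both flanks together, with GT before and AC after on the same strand, were in 28 of the 141 windows with an E-box. Among all windows they were in 107 of the 2349 with an E-box. Counted over windows with or without an E-box, the shares were 18.2% and 0.326%, which mostly differ because far fewer of all windows held an E-box.

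Other motifs were searched in the same 154 windows on both strands. The Sp1-type GC box GGGCGG was in 68.2% (35.7% of all windows, 46.2% of protein-coding windows and 56.1% of the windows of normal-only regions) and the ETS-type CCGGAAG in 24.0% (8.86%), the latter being in 36.4% of the windows of regions called in both normal lists only. CCAAT was in 39.6% (37.4%), the variant E-boxes CACATG in 13.6% (14.2%) and CACGCG in 16.9% (9.27%), the cAMP-response motif TGACGTCA in 3.25% (1.79%), and the TATA box TATAAA in 5.19% (13.6%). Windows without CACGTG were found at 13 regions, those at Acsf3, Zdhhc6 with Vti1a, Stx16, Trub2 with Coq4, Mrps31, Dus1l, Ap1g1, Phf20, Srsf2, Rexo4, Tyw5 with Maip1, Klhdc4 and Mrpl21 with Ighmbp2. CACATG was in 1 of these and CACGCG in 2. Their median GC content was 62.7%, close to that of the whole group.

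The genes of these regions were read against 25 gene lists, of which 7 concern lysosomes and endosomes. Of 870 listed genes, 55 had one of the regions at an end, beside 1.14% of all protein-coding genes. Lysosomal genes were already known from earlier results of these data to be among the strongest sites, so their counts are a description and not independent evidence. When peaks had to overlap reciprocally by 50%, which left 82 regions, the counts given below went from 6 to 3 for the vacuolar ATPase, from 9 to 2 for the lysosomal membrane, from 10 to 3 for the hydrolases, from 5 to 2 for WASH and COMMD, from 5 to 1 for HOPS and its relatives and from 3 to 1 for lysosome-related organelles.

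The vacuolar ATPase, which pumps protons into lysosomes, had 6 of 20 subunits with a region. They were Atp6v0b, Atp6v0c, Atp6v0d1 and Atp6v0e of the membrane sector and Atp6v1c1 and Atp6v1h of the outer sector. Atp6v0c was counted only through its far end, its nearest listed start lying 5070 bp from a summit at the Amdhd2 start. Fold enrichments at Atp6v0e were 14.95, 14.95, 7.63 and 6.73 in the order of lists, and at Atp6v0d1 they were 5.52, 6.50, 4.61 and 5.61, the lowest of the 6 in every list. The E-box nearest the summit lay 3.5 bp away at Atp6v0e and 18.5 bp at Atp6v0d1.

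Of 48 genes of lysosomal membrane proteins and transporters, 9 had a region. These were Lamp1, the amino acid transporter Slc36a1, the chloride and proton exchanger Clcn7, Mfsd1, Slc37a3, Laptm4b, Pip4p1, the calcium channel Mcoln1 and the sialomucin Cd164. Mcoln1 had 12.7, 12.02, 7.42 and 7.17, with its summit 30 bp before the start and an E-box 12.5 bp away. Cd164 had 6.84, 5.39, 12.8 and 13.5.

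Of 61 lysosomal hydrolases and their activators, 10 had a region. Among them, Sgsh, Naglu, Gla and Glb1 act on glycans, the cathepsins Ctsa, Ctsb and Ctsd act on proteins, and Sumf1 activates sulfatases. Ctsa had 30.1, 30.1, 12.5 and 11.3, and Ctsb had 17.6, 16.9, 5.82 and 6.61. Ctsd, with 5.65, 6.90, 5.37 and 4.87, stood near the end of the order. Of 21 genes of mannose 6-phosphate tagging and lysosomal sorting, 3 had a region, namely Nagpa, the sorting receptor Igf2r (16.3, 13.6, 13.6 and 12.8) and the adaptor subunit Ap1g1, whose window held no E-box.

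Endosomal machinery was present in parts. Of 21 genes of the WASH complex and COMMD proteins, 5 had a region (Washc2, Washc4, Washc5, Commd8 and Commd9). Of 48 genes of the HOPS, CORVET, retromer, GARP and ESCRT complexes, 5 had one, namely the tethering subunits Vps33a, Vps11 and Vps8, the retromer subunit Vps26a and Vps50. Of 20 genes of lysosome-related organelles, 3 had one (Hps1, Hps5 and Bloc1s3). None of 52 Rab GTPases, which direct vesicle traffic, had one.

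Lists of nutrient and stress responses had at most 1 gene each, which at the share of 1.14% over all genes is too few to read as high or low. Autophagy had 1 of 42 (Atg3), mTORC1 and nutrient sensing 1 of 34 (Lamtor1, of the Ragulator complex that anchors mTORC1 to lysosomes), the endoplasmic reticulum and integrated stress response 1 of 31 (the factor Atf4), and the circadian clock 1 of 22 (the repressor Cry1). None of 24 genes of AMPK and glucose starvation, 24 of glycolysis and glucose transport, 27 of lipid and sterol synthesis or 20 of the USF, MiT/TFE and MYC/MLX network had one. Atf4 had fold enrichments of 13.6, 13.0, 7.29 and 9.13, Lamtor1 10.9, 10.1, 5.81 and 6.19, and Cry1 8.43, 8.19, 10.8 and 10.2.

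Lists of general cell functions had 0 to 3 genes each, at shares of 0% to 5.77%. Ribosome biogenesis and translation factors had 3 of 52 (Eif4g1, which scaffolds translation initiation, the elongation factor Eef2, and Utp20), the mitochondrial ribosome 3 of 79 (Mrpl2, Mrps31 and Mrpl21), tubulin and microtubule regulators 2 of 35 (Stmn1 and the dynactin subunit Dctn4), cell cycle and replication 1 of 44 (Cdk4), and TFIIH with nucleotide excision repair 1 of 23 (Gtf2h1, beside Hps5). The mitochondrial respiratory chain had none of 71 and nucleotide synthesis none of 27.

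**Figure D4:**
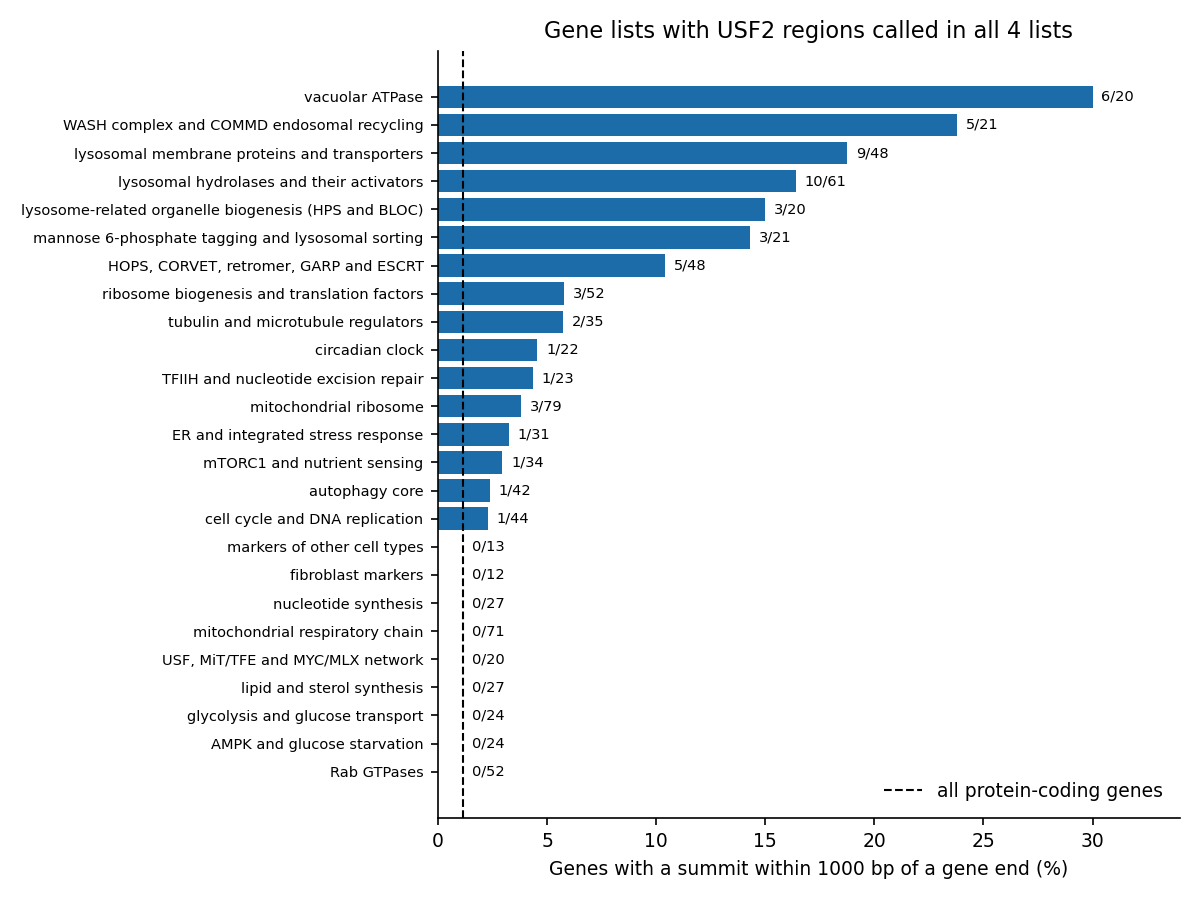
Share of the genes of each of 25 lists that had a region called in all 4 lists within 1000 bp of a gene end (%), with the number of genes beside each bar and the share of all protein-coding genes as a dashed line at 1.14%. The 7 lists of lysosomes and endosomes lie at 10.4% to 30%, and 9 lists have no gene.

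A hand assignment of all 250 genes, made once the genes were known, put 62 genes at 61 regions (29.8% of gene-end regions) into lysosomal enzymes, the lysosomal membrane and transport, or endosome and Golgi trafficking. The remaining protein-coding genes were not assigned, so the class counts have no share over all genes beside them. No excess of a class can be read from them. Transcription factors, chromatin and transcription machinery had 26 genes, among them the homeobox genes Hoxa4 and Hoxc13, the stress factors Atf4 and Atf6b, and Chd8, Kat6a and Trrap. RNA processing, RNA modification and translation had 25, including the splicing factors Srsf2 and Ptbp1 and the tRNA modification enzymes Dus1l, Qtrt1 and Osgep. Metabolism had 17, among them Khk and Hmox1, which degrades heme, and 73 genes were not assigned. Some genes of these classes were counted only through a far end, among them Chd8, Phf23, Xpot and Ldhd. Along the order, 18, 15, 13, 10 and 5 regions of each successive group of 50 (47 in the last) belonged to the lysosomal and endosomal classes, with fewer in the later groups.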

How the data were processed

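Each USF2 library had its own peak list, so libraries were not pooled, and no value was taken from the inputs. The tools were MACS2 2.2.7.1, deepTools 3.5.1 and Bowtie2 2.5.1 with genome GRCm38, per the submitters' processing notes. Peak calling settings and whether the inputs served as control are not given in the sources used here. Fold enrichment in the deposited lists is a ratio made by the authors' peak caller, and −log10 q and −log10 p in the deposited lists come from the same caller. The deposited score is a whole number derived from −log10 q, and it was not used.

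Peaks were merged with Python 3.11.15 (numpy 2.4.6, pandas 2.3.3, scipy 1.17.1) where they overlapped by at least 1 bp. A region's summit was the median of its 4 summits. Genes, strand and sequences came from NCBI RefSeq tables of GRCm38.p6. Exons and untranslated regions were not used here. Reads at a summit were recovered from fold enrichment and p-value with an error of at most 0.000265 on the −log10 scale. The merging and the recovery were tested on simulated data.

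Regions were ordered by the median over the lists of their rank by fold enrichment, as a percent of the list. Named are the first 12, up to 6 genes of each gene list, the first 10 shared by 2 genes, the first 8 away from gene ends, the 4 weakest inside and the 4 strongest outside, and the extremes of summit distance. A few regions and genes that this rule names are not reported here. Genes of the longer lists beyond 6 were named after their values were seen. The regions and gene lists were chosen with earlier results of these data known. Intervals are exact at 95%, and the tests over lists are exact sign-flip permutations. No test compared the conditions. Alternatives covered overlap, threshold, list length, window, gene set, motif and leaving out each library.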

Additional observations from a re-analysis of the deposited data

Results flagged for a closer look

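The second starved library held 8 peaks on unplaced contigs, which were not part of the merging, and the other 3 lists held 0 there.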

How the results depend on the processing

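Of 80 recomputed values of the main results, 69 stayed within the bounds set for a like value, and none of the alternatives turned a direction. The bounds were wide for counts and for differences, so staying within them does not mean a close value. At −log10 q of at least 5 the regions numbered 170 in place of 247, and this was within bounds. So was the gene-end difference of 31.8 points in the top tertile of fold enrichment, in place of 61.8. Leaving out each library in turn moved no main result past those bounds. It also eased the rule to the lists that remained, and the regions then numbered 255 to 280. A region called in all 4 lists has a peak in each of the remaining lists, so this says little about dependence on 1 library. With a reciprocal overlap of 50% the 247 regions became 82, the regions shared by 2 genes 18 and the listed genes 22. A window of 5000 bp gave a gene-end share of 92.7% and 84 shared regions, and the ends of all annotated genes gave 88.3%. The planned E-box share, over 189 regions with a listed start within 1000 bp, was 82.0%, against 88.4% with a start within 300 bp and 91.6% with the summit in the window, the last chosen after seeing the data. In the same 189, the motif with GT before and AC after was in 15.3%, CACATG in 14.8% and CACGCG in 19.05%. Of 275 recomputed gene list counts, 256 stayed; of those that moved, the lysosomal and endosomal counts at 50% overlap are given with the lists, and WASH and COMMD fell to 3 of 5 at −log10 q of at least 5. A list with few peaks limits the regions, the shortest having 825. Absence from a list is not absence of binding. No paired analysis was possible because the results are descriptions or differences between peaks of 1 list, and none is a comparison of conditions whose numbered libraries a block could pair.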
